A study of Mus musculus with 4 samples.

Results

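The cytosolic ribosome is built from a large and a small subunit, and each ribosomal protein is encoded by a gene of its own, named Rpl for the large and Rps for the small subunit. The 87 genes described here are the rows of the deposited gene table whose names follow this scheme, 51 for the large and 36 for the small subunit, out of 21738 listed genes. Names marked as pseudogenes, the Rps6k kinases, Rps19bp1 and Rpl7l1 were left out, and the choice used no measured value. RefSeq annotates 83 of the 87 as protein coding and 4 (Rps3a2, Rps3a3, Rpl6l and Rps4l) as pseudogenes. They lie on 19 chromosomes, with 4 on the X. Rpl3l, Rpl10l and Rpl39l were not analysed here.

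The RNA came from neurospheres, free-floating clusters of stem and progenitor cells, grown for 7 days out of the V-SVZ (ventricular-subventricular zone, a germinal region lining the lateral ventricles), from CD1 wild-type mice aged P7/P8. RNA immunoprecipitation, in which an antibody pulls down a protein with its attached RNA, was done with anti-4E-T in 2 libraries and with anti-IgG as the control in the other 2, numbered Exp1 and Exp2 in each group. All 4 libraries share strain, genotype, age and culture time, no gene was deleted or depleted in either group, and input RNA was not analysed here. The labels do not say whether Exp1 and Exp2 were separate cultures or animals, so the p-values below reflect only how far these 4 libraries scatter, and that scatter may be technical.

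4E-T binds the cap-binding protein eIF4E in place of eIF4G and holds mRNAs out of translation in processing bodies. Ribosomal protein mRNAs are short, abundant and controlled together. Nearly all begin with a TOP motif, a terminal oligopyrimidine tract that opens with C at the cap and continues with C and T. Through it, mTORC1 signalling, the 4E-BPs and LARP1 switch their translation, which makes them a standard example of mRNAs sensitive to eIF4E-binding repressors. In neural stem cells, ribosome production is known to change as cells leave quiescence and begin to divide.

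The starts of 9 genes are shown because the TOP tract is what unites this family, and because they span members called lower and members not called. The sequences are RefSeq promoter windows on GRCm38.p6, read along the gene's strand from 10 bases before to 20 bases from the listed start onward. Capitals mark the longest run of at least 6 C or T that opens with C.
Rpl35: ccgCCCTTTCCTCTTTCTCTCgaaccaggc
Rps18: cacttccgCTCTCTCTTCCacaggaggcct
Rps27: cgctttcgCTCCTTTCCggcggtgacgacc
Rps27rt: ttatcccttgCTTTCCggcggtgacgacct
Rps15a: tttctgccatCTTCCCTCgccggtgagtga
Rpl28: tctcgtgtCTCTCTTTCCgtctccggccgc
Rpl38: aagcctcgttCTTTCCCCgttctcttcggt
Rps28: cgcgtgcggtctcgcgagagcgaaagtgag
Rpl4: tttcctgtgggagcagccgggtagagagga
The windows lie at chr2:39005112-39005141 (Rpl35, minus strand), chr17:33955646-33955675 (Rps18, minus), chr3:90213629-90213658 (Rps27, minus), chr9:114982720-114982749 (Rps27rt, minus), chr7:118116128-118116157 (Rps15a, minus), chr7:4792955-4792984 (Rpl28, plus), chr11:114668570-114668599 (Rpl38, plus), chr17:33824543-33824572 (Rps28, minus) and chr9:64173377-64173406 (Rpl4, plus). Rps27rt, an intronless copy of Rps27 on another chromosome, shares a run of 19 bases, from the CTTTCC onward, with its parent.

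The table held a promoter for 63 of the 87 genes. In the window from 20 bases before to 30 bases after any listed start, on the gene's own strand, CTTTC stood in 22 of these 63 (34.9%) and in 7.66% of 27025 genes with a promoter. A run of at least 6 C or T opening with C stood in 47 of 63 (74.6%) and in 37.8% of all genes. CTTTC can lie within such a run, so the counts overlap. By subunit, CTTTC stood in 16 of 38 large and 6 of 25 small subunit genes. A match describes letters, not a measured transcription start.

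RNA of ribosomal protein genes took a smaller share of the 4E-T than of the IgG libraries. In FPKM (fragments per length of exon and depth of library, as scaled by the authors), the 87 genes made up 2.84% of the summed level in IgG library 1 and 3.11% in IgG library 2, but 2.34% in 4E-T library 1 and 2.04% in 4E-T library 2. The groups did not overlap, and the mean share was lower by 0.78 percentage points with 4E-T (difference −0.78). With 2 libraries against 2, an exact two-sided permutation test cannot give a p below 0.333, which is the value here. As shares of reads, the same genes took 1.15% and 1.29% under IgG against 0.915% and 0.806% under 4E-T.

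**Figure D1:**
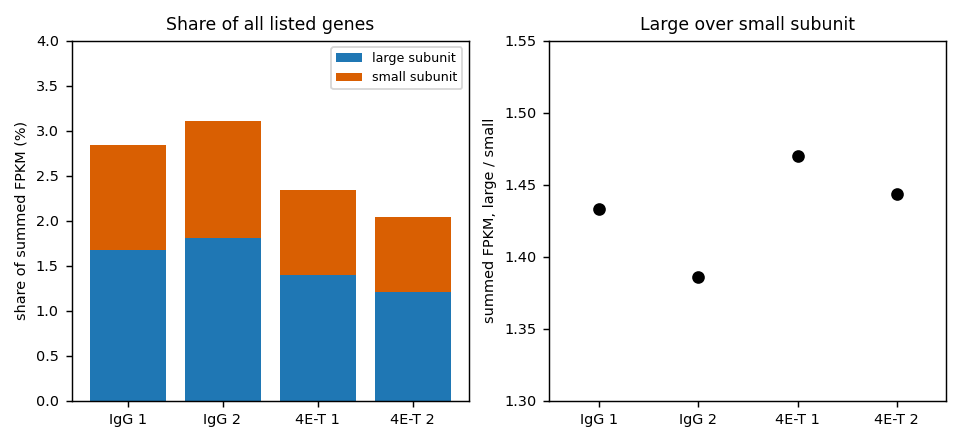
Left, bars give the percentage of summed FPKM over all listed genes that large (blue) and small (orange) subunit genes take in each library; right, points give the ratio of the summed FPKM of large to small subunit genes. The total is 2.84% and 3.11% in the IgG libraries and 2.34% and 2.04% in those of 4E-T, and the ratio lies between 1.39 and 1.47.

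Gene by gene, 33 of the 87 were called lower with 4E-T and 2 higher, at a limma Benjamini-Hochberg adjusted p under 0.05 over all 12585 tested genes. Over all tested genes, 15.2% were called lower and 34.3% higher, 49.5% in either direction. All 87 passed the filter on low values. Rpl6l passed it only through IgG (1.14 and 1.08 FPKM, against 0.706 and 0.635 under 4E-T), and it is among the 33 called lower. The median difference of the 87, 4E-T minus IgG on the log2(FPKM + 1) scale, was −0.29, against 0.16 for all tested genes, and it ran from −1.08 to 0.47. Both 4E-T values lay below both IgG values in 50 of the 87 (25.2% of all tested genes) and above them in 7 (50.5% of all), and the groups overlapped in 30. The authors' deposited table called 28 of the 87 lower and 2 higher at its adjusted p under 0.05 (13.5% and 33.3% of the tested genes), and each of these was also called by limma in the same direction.

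The number of calls depended on single libraries and on scaling. Fewer genes were called lower when either IgG library or 4E-T library 2 was left out, and more without 4E-T library 1. Without IgG library 2, the share called lower was close to that of all tested genes. Leaving out IgG library 1 or 2 gave medians of −0.37 and −0.24 for the 87, against 0.18 and 0.13 for all tested genes. Leaving out 4E-T library 1 or 2 gave −0.45 and −0.13, against 0.13 and 0.19. Scaling the libraries to a common median ratio brought the median of all genes from 0.16 to −0.0025, and the lower count to 61 with 1 higher. In that fit 23.6% of all tested genes were called lower, and 49.2% of all calls were higher. Relative to the median of all genes, the median of the 87 was −0.45 as deposited and −0.47 after that scaling.

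**Figure D2:**
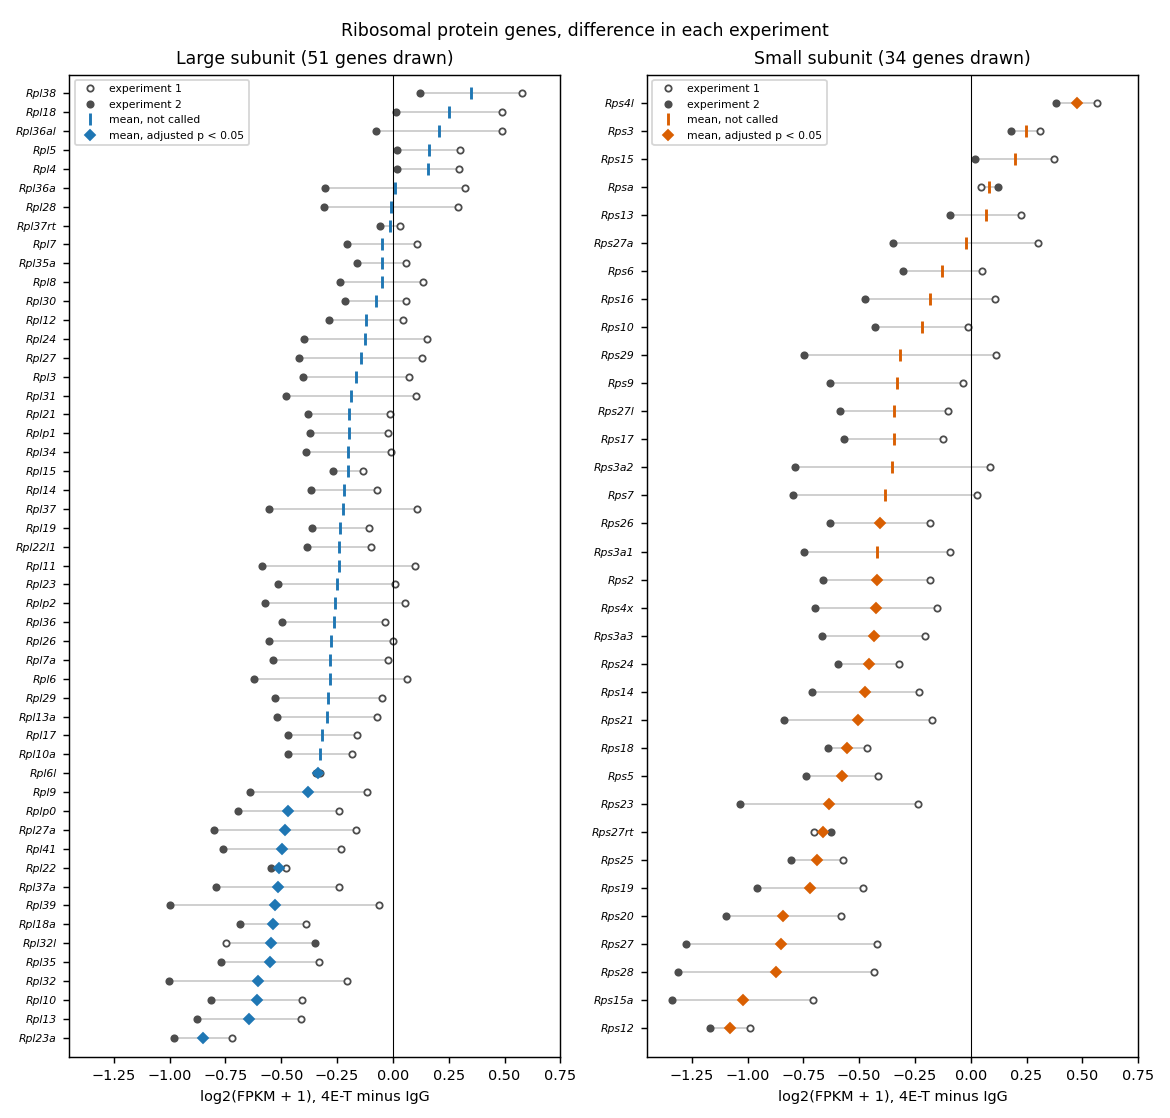
Each row is a gene; circles give its log2(FPKM + 1) difference, 4E-T minus IgG, in experiment 1 (open) and experiment 2 (filled), and the coloured mark the mean of both, a diamond where the limma adjusted p is under 0.05. Filled circles lie left of open ones for most genes, 2 small subunit genes are not drawn, and the genes called lower number 15 of 51 in the large and 18 of 36 in the small subunit.

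The small subunit held the genes with the largest decreases. Rps12, a protein of the beak of the small subunit (chr10:23785183-23787383), measured 13.9 and 17.0 FPKM under IgG against 6.51 and 7.00 under 4E-T. Both 4E-T values lay below both IgG values, and the libraries of each antibody differed little. Its log2 difference was −1.08 ± 0.14 (SE, 2 libraries per antibody, limma adjusted p = 5.35e-07), 2.11-fold lower on the FPKM + 1 scale. Rps15a, a protein of the small subunit body (chr7:118104374-118116147), measured 8.13 and 9.61 FPKM under IgG against 4.60 and 3.20 under 4E-T. The groups were again apart, with 4E-T library 2 the lowest, and the log2 difference was −1.02 ± 0.15 (limma adjusted p = 3.59e-06). These 2 genes were the only ones of the 87 with a difference of at least 2-fold on the FPKM + 1 scale.

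Rps14, Rps26 and Rps28, which lie along the path by which mRNA leaves the small subunit, were each called lower. They were put together after their values were seen; Rps3a1 and Rpsa, also near that path, were not called. Rps28 measured 56.8 and 77.9 FPKM under IgG against 41.8 and 30.8 under 4E-T. The antibodies did not overlap, with IgG library 2 well above the others. Its log2 difference was −0.87 ± 0.17 (limma adjusted p = 0.000399). Rps26 measured 71.4 and 79.5 FPKM under IgG against 62.8 and 51.0 under 4E-T, a log2 difference of −0.41 ± 0.15 (limma adjusted p = 0.0278). Rps14, among the 4 most abundant small subunit genes, measured 234 and 263 FPKM under IgG against 199 and 160 under 4E-T (log2 difference −0.47 ± 0.17; limma adjusted p = 0.0211). Rps26 and Rps14 showed the same order, IgG library 2 highest and 4E-T library 2 lowest.

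At the opposite side of the small subunit, where mRNA enters, Rps2 and Rps3 differed from each other in direction. Rps2 measured 218 and 228 FPKM under IgG against 193 and 144 under 4E-T, a log2 difference of −0.42 ± 0.17 that passed the threshold narrowly (limma adjusted p = 0.0399). Rps3, which also acts in DNA repair, measured 110 and 115 FPKM under IgG against 136 and 130 under 4E-T. Its groups did not overlap, with 4E-T above, but the log2 difference of 0.25 ± 0.15 was not called (limma adjusted p = 0.190). Of the proteins that reach the decoding centre, Rps23 was called lower (log2 difference −0.63 ± 0.17; limma adjusted p = 0.00431) and Rps15 was not called (0.20 ± 0.16; limma adjusted p = 0.320).

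The head of the small subunit carries Rps19, Rps20 and Rps25, all called lower. Rps19, the gene most often mutated in human Diamond-Blackfan anaemia, measured 67.1 and 79.4 FPKM under IgG against 47.7 and 40.4 under 4E-T. Rps20 measured 15.0 and 17.4 FPKM under IgG against 9.68 and 7.61 under 4E-T. Rps25, which some viral internal ribosome entry sites need, measured 281 and 306 FPKM under IgG against 189 and 175 under 4E-T. For each of these 3 genes both 4E-T libraries lay below both IgG libraries, with 4E-T library 2 lowest. The log2 differences were −0.72 ± 0.15 for Rps19, −0.84 ± 0.14 for Rps20 and −0.69 ± 0.16 for Rps25, with limma adjusted p of 0.000265, 2.68e-05 and 0.00104. Rps25 was no longer called without IgG library 2, where its adjusted p was the highest of the 4 fits that leave out a library (0.0708).

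Of the genes called higher, Rps4l, annotated as a transcribed pseudogene related to Rps4x (chr6:148354656-148355596), measured 3.22 and 3.16 FPKM under IgG against 5.25 and 4.42 under 4E-T, a log2 difference of 0.47 ± 0.13 (limma adjusted p = 0.00392). Both 4E-T libraries were above both IgG libraries. This call was lost without IgG library 2 (0.0553) and without 4E-T library 1 (0.0598). Rpsa, a small subunit protein first described as a laminin receptor precursor, had overlapping FPKM of 131, 119, 135 and 130 in IgG 1, IgG 2, 4E-T 1 and 4E-T 2 (log2 difference 0.08 ± 0.16; limma adjusted p = 0.684), and its sign turned under 3 other settings.

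In the large subunit, Rpl23a had the largest decrease. It sits where the nascent protein leaves the ribosome and is a docking site of the signal recognition particle (chr11:78180935-78183584). Its FPKM was 238 and 224 under IgG against 144 and 113 under 4E-T, well apart. The log2 difference was −0.85 ± 0.17 (limma adjusted p = 0.000123), 1.80-fold lower on the FPKM + 1 scale. A set of 8 proteins around this exit site and its tunnel was put together after the values were seen. Of these, Rpl22, Rpl23a, Rpl35 and Rpl39 were called lower and Rpl17, Rpl19, Rpl26 and Rpl31 were not. Rpl4, also of the tunnel, was left out of that set and was not called (log2 difference 0.16 ± 0.18).

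The most abundant ribosomal protein RNA per length, Rpl4, was not called in either direction. Rpl4, which lines the exit tunnel, measured 477 and 427 FPKM under IgG against 585 and 433 under 4E-T. The groups overlapped, and the log2 difference of 0.16 ± 0.18, whose sign turned with median ratio scaling, did not pass (limma adjusted p = 0.497). Rpl19 measured 362 and 332 FPKM under IgG against 336 and 258 under 4E-T (log2 difference −0.24 ± 0.18; limma adjusted p = 0.273). Rpl3, beside the peptidyl transferase centre, measured 260 and 236 FPKM under IgG against 273 and 179 under 4E-T (log2 difference −0.17 ± 0.19; limma adjusted p = 0.480). Rpl19 and Rpl3 overlapped between antibodies, since in each the first 4E-T library reached the IgG range and the second lay below it. Rpl14 measured 262 and 251 FPKM under IgG against 249 and 194 under 4E-T; its groups did not overlap, but the log2 difference of −0.22 ± 0.17 was not called (limma adjusted p = 0.295). Rpl38, known in the mouse for its part in translating Hox mRNAs, had the highest difference of the large subunit, 0.35 ± 0.16, with FPKM of 73.2 and 84.5 under IgG against 110 and 92.1 under 4E-T. It was not called (limma adjusted p = 0.0629), and neither was any other large subunit gene in this direction: both limma and the authors' deposited table called 0, with 1 at an unadjusted limma p under 0.05. Other settings did call large subunit genes higher: 1 with voom on recovered reads, 1 with the length trend removed and 2 without 4E-T library 2. Rpl38 was called in each of these settings, with a limma adjusted p from 0.0051 to 0.0385.

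The stalk, made of Rplp0, Rplp1 and Rplp2, recruits elongation factors to the large subunit. Rplp0 measured 173 and 184 FPKM under IgG against 146 and 114 under 4E-T, without overlap, and was called lower (log2 difference −0.47 ± 0.16; limma adjusted p = 0.0194). Rplp1 measured 103 and 114 FPKM under IgG against 101 and 87.9 under 4E-T, apart by little (log2 difference −0.20 ± 0.16; limma adjusted p = 0.30). Rplp2, with 57.2 and 69.1 against 59.3 and 46.2, overlapped (log2 difference −0.26 ± 0.16; limma adjusted p = 0.168). Whether the 3 differ from each other was not tested. Rpl5 and Rpl11, which bind 5S rRNA and, when unassembled, inhibit Mdm2, were not called, with log2 differences of 0.16 ± 0.16 and −0.24 ± 0.16 (limma adjusted p = 0.415 and 0.218); the sign of Rpl5 turned with scaling.

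Set side by side, 15 of 51 large subunit genes (29.4%) and 18 of 36 small subunit genes (50%) were called lower. The median log2 difference was −0.24 in the large and −0.41 in the small subunit, so the large minus small difference of medians was 0.17. The median level turned over between the antibodies. It was 78.9 and 84.5 FPKM for large and 92.5 and 103 FPKM for small subunit genes with IgG, and 85.9 and 68.1 FPKM for large and 73.7 and 61.4 FPKM for small subunit genes with 4E-T. The small subunit median was thus the higher in both IgG libraries and the lower in both 4E-T libraries. The ratio of summed FPKM, large over small, was 1.43 and 1.39 under IgG against 1.47 and 1.44 under 4E-T, which did not overlap. Genes of a subunit are not replicates, so no test was made of the contrast between subunits. With the trend on exon length removed, the difference of medians was 0.10, and leaving out each library gave 0.093 to 0.20.

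The difference was larger in experiment 2. In experiment 1 the median log2 difference of the 87 was −0.05, with 52 genes below 0, and in experiment 2 it was −0.54, with 78 below 0. The medians of all tested genes were 0.17 and 0.16 in the same experiments. Both experiments gave a difference below 0 in 52 of the 87 (28.6% of all tested genes) and above 0 in 9 (55% of all). By subunit, the medians were −0.024 and −0.47 for large and −0.14 and −0.65 for small subunit genes in experiments 1 and 2. Across the 87 genes the differences of the 2 experiments had a Pearson r of 0.76 and a Spearman rho of 0.73; the genes share libraries and are not independent.

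**Figure D3:**
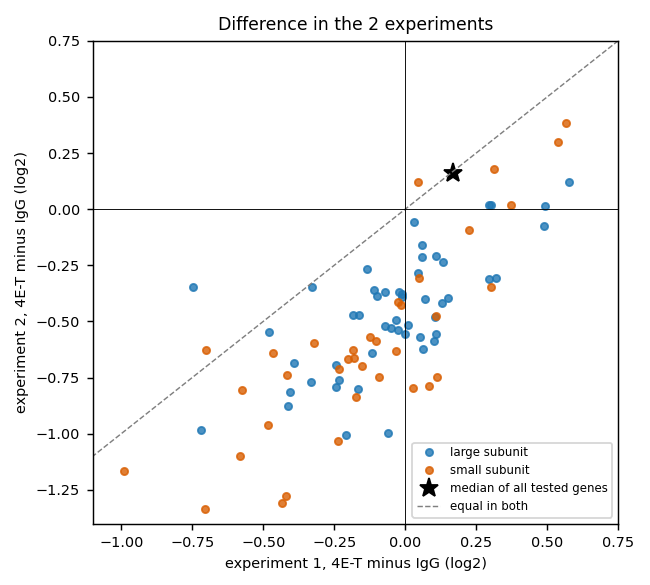
Each point is a gene, with its log2(FPKM + 1) difference, 4E-T minus IgG, in experiment 1 on the x axis and experiment 2 on the y axis, blue for large and orange for small subunit genes; the dashed line marks equal values and the star the median of all tested genes. Most points lie under the dashed line, and 52 of 87 lie below 0 in both experiments.

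Libraries of the same antibody also stood apart in this family. 4E-T library 1 was above 4E-T library 2 in 84 of the 87 genes (66.6% of all tested genes), by a median of 0.32 on the log2 scale against 0.08 for all genes. IgG library 2 was above IgG library 1 in 73 (34.3% of all), by a median of 0.13 against −0.07. 4E-T library 2 was the lowest of the 4 libraries in 72 genes, and IgG library 2 the highest in 59. In 47 genes the 4E-T libraries differed from each other by more than the antibodies did. The counts of 72, 59 and 47 were not set against shares of all tested genes. Rps23 had FPKM of 79.5 and 94.3 for IgG and 67.3 and 45.6 for 4E-T, and Rpl32 had 138 and 161 against 119 and 79.9. Both show 4E-T library 2 lowest and IgG library 2 highest.

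Among the 33 genes called lower, all 33 had both 4E-T libraries below both IgG libraries. Their sign could therefore not turn when a library was left out, or with another pseudocount, no filter or the experiment block. All 33 kept a negative difference in the 11 other settings tried, and 7 were called lower in each of those settings: Rps12, Rps15a, Rps28, Rpl23a, Rps20, Rps19 and Rps27rt. Neither gene called higher held in all 11. Rps12 had limma adjusted p-values no higher than 0.0031 over these settings and log2 differences from −1.26 to −0.94. By contrast Rps14, Rps26, Rps2, Rps4x, Rps3a3, Rplp0, Rpl32 and Rpl35 kept their call in 1 of the 4 fits that leave out a library, the one without 4E-T library 1, and their highest limma adjusted p in the other 3 ran from 0.132 (Rpl35) to 0.428 (Rps3a3). Rps23 kept it in 2 of 4.

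Several genes have a close copy in the family, and reads of copies cannot be assigned with certainty, since the counting settings are not given in the sources used here. Rps27, a zinc finger protein of the small subunit, measured 80.8 and 97.7 FPKM under IgG against 60.1 and 39.7 under 4E-T (log2 difference −0.85 ± 0.18; limma adjusted p = 0.000805). Its intronless copy Rps27rt was far less abundant per length, with 5.46 and 5.22 against 2.97 and 3.03 (log2 difference −0.66 ± 0.13; limma adjusted p = 0.000125). Rps27 lost its call without IgG library 2 (limma adjusted p = 0.0580), while Rps27rt kept it. Their paralog Rps27l, a p53 target, had 183 and 203 against 170 and 135 FPKM, apart but not called (log2 difference −0.34 ± 0.17; limma adjusted p = 0.0848).

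Rpl22 measured 34.9 and 33.2 FPKM under IgG against 24.7 and 22.4 under 4E-T (log2 difference −0.51 ± 0.14; limma adjusted p = 0.00326, but 0.0554 without IgG library 1). Its paralog Rpl22l1 had 13.6 and 14.3 against 12.6 and 10.7 (log2 difference −0.24 ± 0.14; limma adjusted p = 0.150). Neither gene's groups overlapped, and the difference between paralogs was not tested. Rps4x was called lower, with 185 and 195 against 167 and 120 FPKM (log2 difference −0.42 ± 0.17; limma adjusted p = 0.0390), while the low-abundance Rps4l was called higher, as given above. The call of Rps4x was lost with no filter on low values (limma adjusted p = 0.107). Rps3a1 and its copies Rps3a2 and Rps3a3 had log2 differences of −0.42 ± 0.18, −0.35 ± 0.19 and −0.43 ± 0.16, of which Rps3a3 was called (limma adjusted p = 0.0271, against 0.0542 and 0.157). Rpl36a and its intronless copy Rpl36al, at 0.01 ± 0.15 and 0.21 ± 0.15, were not called. Neither were Rpl7 and Rpl7a, at −0.05 ± 0.16 and −0.28 ± 0.17, which were paired by name only and are not copies of each other. Leaving out 7 copies (Rpl22l1, Rpl36al, Rps4l, Rps27l, Rps27rt, Rps3a2 and Rps3a3) left the family's median at −0.29, with 31 of the remaining 80 genes called lower. Those 80 still held Rpl6l, Rpl32l and Rpl37rt, which are also copies by name, and Rpl6l and Rpl32l were among the 31.

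**Figure D4:**
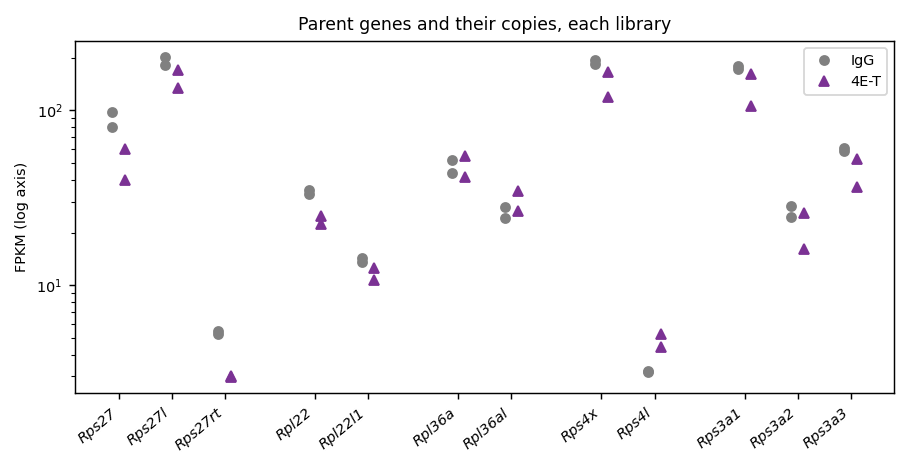
FPKM on a log axis in each library for parent genes and their copies, grey circles for IgG and purple triangles for 4E-T. Both triangles lie under both circles for Rps27, Rps27l, Rps27rt, Rpl22, Rpl22l1, Rps4x, Rps3a1 and Rps3a3, and above them for Rps4l.

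Length, level and start sequence separated the members little. The difference had a Pearson r of 0.024 with log2 exon length and 0.089 with mean log2 level over the 87 genes, whereas over all 12585 tested genes the r with exon length was 0.26. The members were short, with exons of 977 bp at the median, where all tested genes had 3175 bp, and ran from 374 bp (Rps27rt) to 5179 bp (Rps15a). Among the 63 members under 1500 bp the median difference was −0.32, with 24 called lower, and among the 24 longer ones −0.20, with 9 called lower. The 30 genes that have a snoRNA gene within their span had a median of −0.27 and the other 57 a median of −0.33. Genes with CTTTC at a listed start had a median difference of −0.27 and those without −0.34, and CTTTC stood in 7 of 25 genes called lower (28.0%) and 15 of 38 others (39.5%).

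Other genes linked to ribosome production are given for reference, from lists drawn up with earlier results of these data known. Fau, the ubiquitin-like fusion of a small subunit protein, and Rack1, the scaffold on the small subunit, were not called (log2 differences −0.11 ± 0.16 and 0.11 ± 0.14; limma adjusted p = 0.580 and 0.541). Rack1 turned its sign under median ratio scaling, quantile normalisation and removal of the length trend.

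Of 31 other TOP mRNAs, which encode translation factors and similar proteins, 6 (19.4%) were called higher and 4 (12.9%) lower. Over all tested genes these shares were 34.3% and 15.2%. The list had a median log2 difference of 0.08, whose sign turned with scaling. The balance of calls turned too, to 4 higher and 9 lower after median ratio scaling and 4 and 11 after quantile normalisation, and it was 2 and 1 without IgG library 2. Npm1, a nucleolar chaperone, had the lowest difference, with FPKM of 247 and 237 against 146 and 117 (log2 difference −0.88 ± 0.17). Ipo5, an importin that carries ribosomal proteins into the nucleus, measured 63.4 and 53.7 FPKM under IgG against 258 and 259 under 4E-T (2.13 ± 0.16), and Eif3a, a subunit of initiation factor eIF3, a difference of 0.85 ± 0.16. Ipo5 and Eif3a were the highest of that list.

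Of 62 ribosome assembly factors, 32 were called higher and 4 lower, with a median log2 difference of 0.37, against 34.3% higher and 15.2% lower over all tested genes. Median ratio scaling gave 25 higher, 8 lower and a median of 0.20, and removal of the length trend 25, 9 and 0.23; 20 were higher without IgG library 2. Rrp12 and Nop2, factors of subunit maturation and rRNA methylation, had the largest increases (1.22 ± 0.16 and 1.18 ± 0.15), and Sbds, which releases eIF6 from the large subunit, and the nucleolar protein Ncl the largest decreases (−0.63 ± 0.14 and −0.61 ± 0.15). Of 19 regulators of TOP translation, 9 (47.4%) were called higher and 2 (10.5%) lower, with a median of 0.22. With median ratio scaling these were 6, 4 and 0.033, and with the length trend removed 6, 4 and 0.094. Without IgG library 2, 6 were called higher, without IgG library 1, 1 was called lower, and without 4E-T library 1 the median was 0.35. Mtor (1.05 ± 0.14) and Eif4g1 (1.02 ± 0.15) were the highest, and Eif4e (−0.57 ± 0.15) and Rheb (−0.54 ± 0.14) the 2 called lower. Each of these 8 named genes had a limma adjusted p of 0.00218 or less, but the calls of Ncl (0.0689 without IgG library 2) and Eif4e (0.0837 without IgG library 1) were each lost without a library.

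Ribosomal proteins of the mitochondrion had a median near that of all genes. Of 81 tested, 19 (23.5%) were called higher and 7 (8.64%) lower, against 34.3% and 15.2% of all tested genes. Their median log2 difference of 0.15 turned sign with scaling. Median ratio scaling gave 10 higher and 12 lower. Leaving out IgG library 1 gave 8 and 4, IgG library 2 gave 6 and 2, 4E-T library 1 gave 10 and 8, and 4E-T library 2 gave 21 and 4. Of 143 listed pseudogenes of cytosolic ribosomal proteins, whose reads may come from the parent genes, 68 were tested. Of these 28 (41.2%) were called lower and 1 (1.47%) higher, with a median of −0.26. They lay near the filter, with a median level of 2.17 FPKM. Rows this low can pass it through 1 antibody group only. With no filter the median of the 143 was −0.17, with 33 called lower. The lower count was 14 without IgG library 1, 16 without IgG library 2 and 15 with the length trend removed, where the median was −0.099. The authors' deposited table called 12 of the 68 lower. Their medians in experiments 1 and 2 were −0.27 and −0.30, unlike the −0.05 and −0.54 of the genes themselves.

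**Figure D5:**
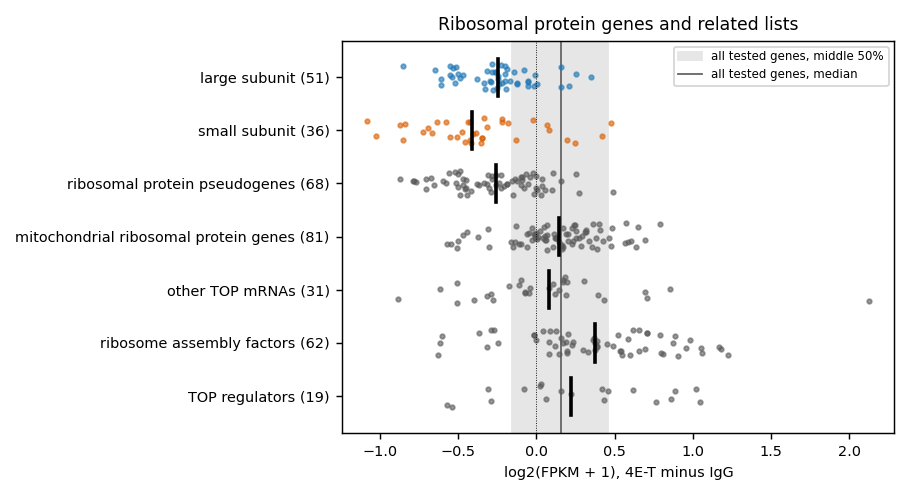
Each point is a tested gene with its log2(FPKM + 1) difference, 4E-T minus IgG; black bars are list medians, the grey band the middle 50% of all tested genes and the grey line their median, 0.16. The medians are −0.24 for large subunit genes, −0.41 for small subunit genes, −0.26 for pseudogenes, 0.15 for mitochondrial ribosomal proteins and 0.37 for assembly factors.

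The libraries held 72769612 to 85828188 reads over the listed genes, of which 586271 to 1005256 fell in the 87 genes, and at least 37 reads per gene and library. Eif4enif1, the gene of 4E-T, was not called (FPKM 31.3 and 29.7 under IgG against 32.5 and 35.3 under 4E-T; limma adjusted p = 0.390). All 10 neural precursor markers were tested, and 5 were called higher, against 34.3% of all tested genes. They made up 1.11% and 1.18% of summed FPKM with IgG and 1.48% and 1.24% with 4E-T. Astrocyte markers (3 of 4 tested) made up 0.101% and 0.0929% under IgG against 0.208% and 0.182% under 4E-T, nearly all from Aldh1l1. Markers of neurons, oligodendrocytes and ependymal cells each summed to at most 0.0038%, and no listed marker of microglia and blood (2 listed) or of endothelial and mural cells (4 listed) reached the filter. Of 18 mitochondrially encoded genes 12 were called lower, against 15.2% of all tested genes, with a median log2 difference of −1.76. The part of these shifts in the ribosomal protein values was not tested. Values are scaled per library and the groups differ by antibody, so they describe recovered RNA, not numbers of cells or RNA per cell.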

How the data were processed

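RNA from 2 anti-4E-T and 2 control IgG immunoprecipitates was compared. STAR 2.6.0c and HTSeq 0.6.1p2 are named, without settings, in the submitters' processing notes, together with DESeq2 1.26.0, the build mm10, DESeq, Trim Galore 0.5.0 and FastQC 0.11.5. The cDNA was made with SMART-Seq v4 after a Magna RIP isolation, per the labels' protocols. SMART-Seq keeps no strand, so overlapping and antisense genes cannot be told apart. The authors deposited FPKM per gene and library, and baseMean, a signal (mean of normalised reads), per the file headers. The authors' own comparison is in the same table, as deposited log2 fold changes, a test statistic (a score), p-values and linear fold changes.

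FPKM and baseMean together gave whole reads for 100% of 86952 values, within 0.01 read. The FPKM carry the authors' size factors. Exon lengths came from the same step. The 12585 genes that reached an FPKM of 1 in 2 or more libraries were fitted with limma 3.58.1 (R 4.3.3, trend and robust options) on log2(FPKM + 1), which understates changes of low genes, with the antibody as the only term. p-values were Benjamini-Hochberg adjusted over all tested genes, threshold 0.05. Each gene has 2 residual degrees of freedom, and the pooled spread adds 27 prior ones, so the test rests mostly on pooling. Reads of libraries of the same antibody differed beyond sampling noise (chi-square per degree of freedom 31.2 for IgG and 44.4 for 4E-T), so none was a duplicate. The fit was tested on simulated data.

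The genes, lists, tests and alternatives were chosen with earlier results of these data known. Named genes were the 8 largest increases and 8 largest decreases among calls with the same sign in both experiments, the 4 most abundant genes of each subunit, the stalk proteins, Rpsa, genes with copies, the 2 largest calls in each direction of the other lists, Fau and Rack1. The values of a few genes under this rule are left out of the text. Only 2 members were called higher. Further members were named for their roles after their values were seen. RefSeq (GRCm38.p6, the mm10 assembly) supplied gene spans for all 87 genes and promoter windows for 63. Alternatives covered the pseudocount (0.1), the filter, scaling, an experiment block, exon length, copies left out, each library left out and, added after seeing the data, limma voom on the recovered reads and members under 1500 bp.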

Additional observations from a re-analysis of the deposited data

How the results depend on the processing

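The median log2 difference of the 87 genes stayed below 0 in every alternative run, from −0.47 (quantile normalisation) to −0.13 (without 4E-T library 2), and its distance from the median of all tested genes ran from −0.59 to −0.28. The count of genes called lower, 33, was 33 with a pseudocount of 0.1, 33 with the length trend removed and 36 with voom on the recovered reads. It was 21 with no filter on low values, 61 with median ratio scaling and 64 when quantile normalised, and 9 to 52 when each library was left out; with 1 library left in an antibody group, that library is assumed to vary like the others. The count called higher, 2, was 1 with no filter, 1 with median ratio scaling, 4 with the length trend removed and 0 to 4 when each library was left out. Of the 33 lower calls, 33 were also made with median ratio scaling, 32 after quantile normalisation, 32 with voom, 28 with the length trend removed and 21 with no filter. Over all tested genes, 69.3% of calls were higher as deposited, 49.2% with median ratio scaling, 52.8% with quantile normalisation, 49.6% with the length trend removed and 57.7% with no filter. The large minus small difference of medians, 0.17, was 0.10 with the length trend removed and 0.093 to 0.20 when each library was left out. The share of summed FPKM was lower with 4E-T by −0.75 points without the 7 copies and −0.80 points without the mitochondrially encoded genes.

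The experiment numbers did not pair the libraries: deviations of same-numbered libraries had a correlation of 0.064 over all tested genes. With the replicate block, 34 genes were called lower and 3 higher, of which 32 and 2 were the calls made without it. The added higher call was Rpl38 (limma adjusted p = 0.0459).

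Signs turned in some lists and genes that were not called; the cause was not tested. The median of the other TOP mRNAs was −0.10 with median ratio scaling, −0.080 with quantile normalisation, −0.051 with the length trend removed and −0.057 to 0.21 when each library was left out. That of the mitochondrial ribosomal protein genes was −0.034 after median ratio scaling and −0.019 after quantile normalisation. In the same order of settings Rpsa gave −0.10, −0.079 and, with the length trend removed, −0.041, and Rack1 −0.075, −0.080 and −0.11. Rpl36a gave −0.18 with median ratio scaling, −0.20 with quantile normalisation, −0.11 without IgG library 1 and −0.19 without 4E-T library 1. Rpl4 gave −0.031 with median ratio scaling and −0.059 to 0.37 when each library was left out. Rpl5 gave −0.027 with median ratio scaling and −0.0034 when quantile normalised. Without 4E-T library 2, Rpl3 gave 0.14, Rpl7 0.095 and Rpl28 0.11, and Rpl28 gave 0.17 without IgG library 2. Planned count tests with edgeR and DESeq2 on recovered reads were not run; limma voom was run on those reads instead.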
